A study of Mus musculus with 4 samples.

Results

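The secretory pathway and ER stress genes are 37 genes whose products bring new proteins into the endoplasmic reticulum (ER), fold them, remove those that misfold, or sense an overloaded ER. They were taken from the arrays by gene name, by a list drawn up when earlier results of these data were known, and were 37 of the 34844 named genes on the array. All 37 were among the 22312 genes tested, and the probe that stood for each of them was well above background on all 4 arrays. Gene expression was measured in salivary glands (SGs) of female mice aged 10 weeks with the strain label C57/BL6, with 1-colour whole mouse genome arrays, of which 2 were labelled Myd88-/- and 2 Myd88+/+. The Myd88-/- mice were labelled Myd88-null and had been backcrossed to C57BL/6, and the sources name no promoter or cell type that would restrict the deficiency. The Myd88+/+ mice were wild type controls, both genotypes were offspring of heterozygous parents, and the labels name no treatment for either. MyD88 is the adaptor that most Toll-like receptors and the interleukin-1 receptor family use to signal. The tissue was the submandibular plus the sublingual gland per the labels, whereas the paper describes the arrays as made from whole submandibular glands (SMGs), and the sources do not settle which of these holds. The array legends of the paper give n = 3 for each genotype, whereas the labels hold 2 arrays of each. Neither source says that each array came from a separate mouse, so p-values measure only the spread between these samples.

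Secretory cells of SGs make large amounts of saliva proteins, and nearly all of these pass through the ER. Nascent chains enter through the Sec61 channel, signal peptidase removes their signal peptide, and chaperones and disulfide isomerases fold them. Chains that fail to fold are sent back to the cytosol for ER-associated degradation (ERAD), and a shortage of folding capacity is sensed by IRE1, PERK and ATF6, which start the unfolded protein response and raise the transcription of chaperone genes. These sensors act through cleavage, phosphorylation and splicing, which the level of an mRNA does not measure.

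Many promoters of ER chaperone genes carry the ER stress response element (ERSE), which consists of CCAAT, 9 bases, and CCACG and is bound by ATF6 and XBP1 together with the factor NF-Y. The sequences below are shown because genes with the same element had unlike values on these arrays, a contrast between genes that was not tested. They were read from RefSeq promoters (GRCm38.p6, 250 bases before to 50 after each start), on the strand of the gene, with capitals for CCAAT and CCACG and 20 bases on either side.
Hspa5: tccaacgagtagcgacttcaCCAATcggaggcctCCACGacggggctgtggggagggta
Dnajc3: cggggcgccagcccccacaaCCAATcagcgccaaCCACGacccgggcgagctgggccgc
Syvn1: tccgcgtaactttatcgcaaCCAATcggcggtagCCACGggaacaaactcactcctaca
Hsp90b1: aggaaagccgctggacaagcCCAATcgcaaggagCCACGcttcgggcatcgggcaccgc
Pdia6: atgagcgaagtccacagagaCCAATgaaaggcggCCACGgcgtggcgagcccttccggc
The element of Hspa5 lies at chr2:34772005-34772063 on the plus strand with its flanks, and begins 65 bases before the start. That of Dnajc3 lies at chr14:118937807-118937865 (plus strand, 105 bases before the start). That of Syvn1 lies at chr19:6046512-6046570 (plus strand, 44 bases before the start). That of Hsp90b1 lies at chr10:86705618-86705676 (minus strand, 212 bases before the start), and the same promoter holds another in the opposite orientation. That of Pdia6 lies at chr12:17266471-17266529 (plus strand, 98 bases before the start).

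A promoter was given for 30 of the 37 genes, and those of Atf6, Creb3l1, Sec61a1, Ssr2, Spcs3, Manf and Hyou1 were not analysed here. Searched on both strands, the element was found in a promoter of 8 of the 30 genes (26.7%), which besides the genes shown were Calr, Canx and Ero1lb. Over all promoters of this length, counted singly rather than by gene, 39 of 32851 (0.119%) held it. The median log2 difference between genotypes was 0.39 over the 8 genes with the element and 0.27 over the 22 without it. Among genes outside the set, 13 tested genes had the element, and 6 of these had a higher mean on the Myd88-/- arrays. The related ERSE-II, which consists of ATTGG, 1 base, and CCACG, was in the promoters of Herpud1 and Dnajb11 and in 12 of 32851 promoters (0.0365%). It is shown for Herpud1, whose signal differed little between genotypes, from chr8:94386357-94386407 on the plus strand, beginning 52 bases before the start.
Herpud1: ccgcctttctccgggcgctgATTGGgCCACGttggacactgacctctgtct
The core of the UPRE, TGACGTGG, was in a promoter of 0 of the 30 genes and in 0.676% of all promoters. The cyclic AMP response element TGACGTCA was in a promoter of 0 of the 30 genes and in 1.79% of all promoters. The ATF4 element TGATGCAA was in a promoter of Herpud1 alone among the 30 genes and in 0.895% of all promoters. These matches are descriptions of letters in a window and do not show that a factor was bound.

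Values are log2 processed signals relative to the 75th percentile of the same array, so a value of 1 on this scale is a signal 2 times that percentile. Array values are given in the order Myd88-/- array 1 and 2 against Myd88+/+ array 1 and 2, and a difference is the Myd88-/- mean minus the Myd88+/+ mean in log2 units with its standard error (SE) from limma, n = 2 arrays for each label. Myd88-/- array 1 and Myd88+/+ array 2 detected fewer dim probes (52.2% and 55.1% well above background) than Myd88-/- array 2 and Myd88+/+ array 1 (68.4% and 74.2%). The Myd88 probe (chr9:119245322-119245381, NCBI37/mm9) gave 1.51 and 1.41 against 1.15 and 1.07, a difference of 0.35 (SE 0.11, adjusted p = 0.264 by limma), so its signal was stronger where Myd88 is labelled null. The exons removed by the deletion are not given in the sources used here, so this probe checks no label. Of the marker genes that bear on the tissue, the submandibular acinar gene Pip ranged from 10.1 to 10.61 and the sublingual mucin gene Muc19 from 8.38 to 8.68 over the 4 arrays.

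Most of the 37 genes had a slightly stronger signal on the Myd88-/- arrays, by 1.30-fold at the median, and the highest fold was 1.78 (Hyou1). The mean was higher for 35 of the 37 genes, where 59.6% of all genes tested had a higher mean, and lower for 2, where 40.4% of all genes had a lower mean. Both Myd88-/- arrays lay above both Myd88+/+ arrays for 29 genes, against 33.2% of all genes tested, and both lay below for 1 gene, against 18.7%. The remaining 7 genes overlapped between genotypes. The gap between the nearest arrays of the 29 genes ranged from 0.015 to 0.67 with a median of 0.26. In these whole-gland samples, more cells of a type and more RNA per cell cannot be told apart, nor can fewer cells and less RNA per cell.

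No gene of the set passed limma's test at an adjusted p of 0.05, and 0% of all 22312 genes did. The lowest adjusted p was 0.199 in the set (Eif2ak3) and 0.194 over all genes tested. At an unadjusted p under 0.05, limma called 20 of the 37 genes, where 16.7% of all genes passed. Of these 20, 19 were higher on the Myd88-/- arrays, against 9.82% of all genes tested, and 1 was lower, against 6.83%. With 1 array left out, limma called 6 of the 37 without Myd88-/- array 1 (11.1% of all genes), 11 without Myd88-/- array 2 (13.6%), 6 without Myd88+/+ array 1 (10.3%) and 6 without Myd88+/+ array 2 (9.82%). After median scaling it called 0 of the 37 and 4.46% of all genes. The methods' t-test gave 0 genes of the set after adjustment, where 0.00448% of all genes passed, and 15 before it, all 15 higher, where 13.2% passed. After normexp background correction and after median scaling limma called 0 genes of the set at an adjusted p of 0.05, where 0.359% and 1.8% of all genes passed. With limma's trended and robust moderation, 4 genes of the set had an adjusted p under 0.05, namely Eif2ak3 (0.0386), Hspa5 (0.0398), Spcs2 (0.0444) and Dnajc3 (0.0470), where 2.16% of all genes did. None of the 37 differed by more than 1 log2 unit, whereas 4.79% of all genes did.

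**Figure D1:**
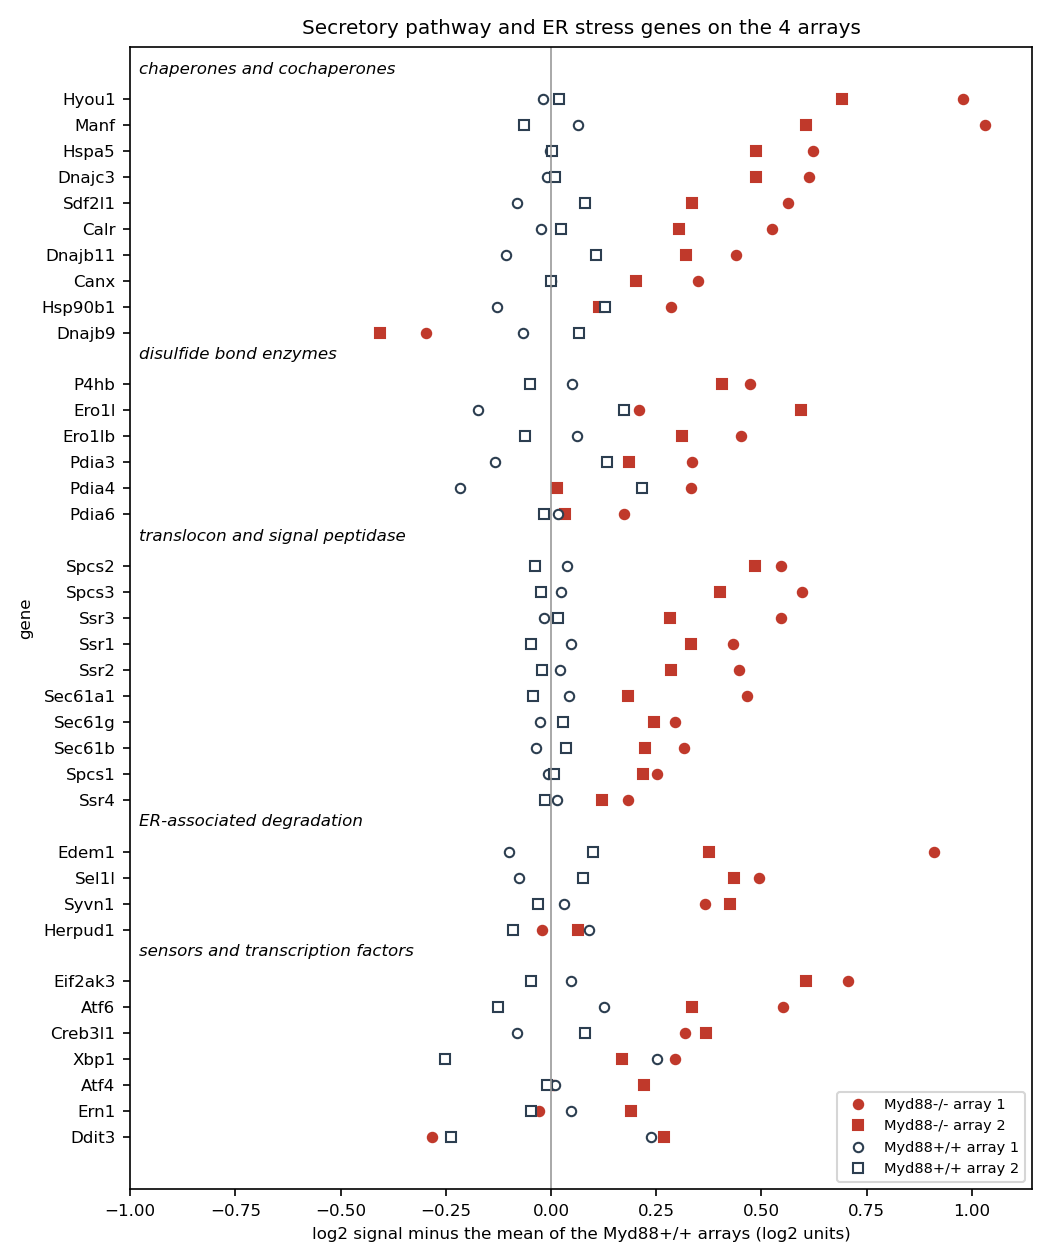
Log2 signal of each of the 37 genes on the 4 arrays, as the distance in log2 units from the mean of the Myd88+/+ arrays; filled points are the Myd88-/- arrays, open points the Myd88+/+ arrays, and each point is 1 array. Filled points lie to the right of both open points for 29 genes and to the left for Dnajb9 only.

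The median difference over the set was 0.38, against 0.06 over all genes tested. Differences within the set ran from -0.35 to 0.84. The spread between arrays of 1 genotype was smaller for most genes, with a median absolute difference of 0.14 between the Myd88-/- arrays and of 0.09 between the Myd88+/+ arrays. The 2 Myd88-/- arrays did not stand alike, as array 1 exceeded array 2 for 30 of the 37 genes, where it did so for 49.6% of all genes tested. Between the Myd88+/+ arrays, array 1 exceeded array 2 for 19 genes, against 49.9% of all. Set against the array with a like share of detected probes, Myd88-/- array 1 exceeded Myd88+/+ array 2 by a median of 0.42 over the set (0.05 over all genes tested). Myd88-/- array 2 exceeded Myd88+/+ array 1 by a median of 0.29 (0.07 over all genes tested). Both of these differences were above 0 for 33 of the 37 genes, against 42.8% of all.

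**Figure D2:**
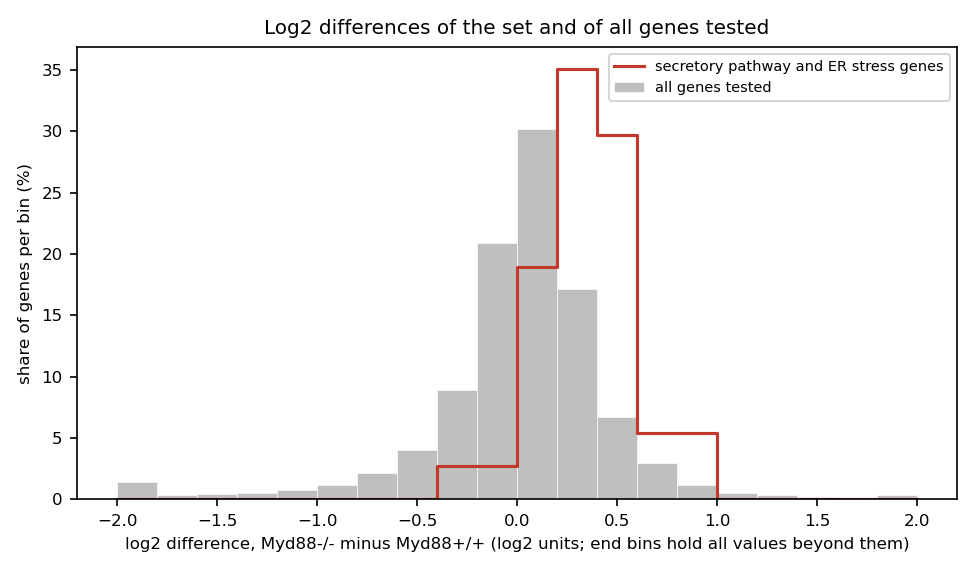
Share of genes (%) in each bin of 0.2 log2 units of the Myd88-/- minus Myd88+/+ difference, for all genes tested (grey bars) and for the 37 genes (red line); the end bins also hold all values beyond them. The set lies mostly between 0 and 0.6, with a median of 0.38, and holds no gene in either tail.

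Chaperones and their partners were 10 of the 37 genes, and 9 had a higher mean on the Myd88-/- arrays, with a median difference of 0.43. At an unadjusted p under 0.05, 7 were higher and 1 lower, against 9.82% and 6.83% of all genes tested. Hspa5 encodes BiP, the main ER chaperone, which also holds the stress sensors inactive. Its probe (chr2:34631913-34631972, NCBI37/mm9) gave 6.42 and 6.28 against 5.79 and 5.80, and the difference was 0.56 (SE 0.11, adjusted p = 0.204 by limma). The Myd88+/+ arrays were nearly equal, and the lower Myd88-/- array lay 0.49 above them. Hyou1, a nucleotide exchange factor for BiP, gave -0.91 and -1.20 against -1.91 and -1.87 at chr9:44199354-44199413. Its difference of 0.84 was the largest of the set (SE 0.14, adjusted p = 0.200 by limma). Manf, a small ER protein that binds BiP and is secreted under stress, gave 3.75 and 3.33 against 2.79 and 2.66 at chr9:106791278-106791337. This is 1.76-fold higher (difference 0.82, SE 0.19, adjusted p = 0.220 by limma). Manf and Hyou1 lie on chromosome 9, as Myd88 does. Whether DNA from before the backcross remains near Myd88 and bears on the signal of either gene was not tested. The Myd88-/- arrays differed from each other more for Manf than for Hspa5.

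The DnaJ cochaperones hand clients to BiP. Dnajc3, which also inhibits PERK, gave 3.32 and 3.20 against 2.70 and 2.72, with a difference of 0.55 (SE 0.11, adjusted p = 0.204 by limma). Dnajb11 gave 3.62 and 3.50 against 3.08 and 3.29, with a difference of 0.38 (SE 0.13). Dnajb9 (ERdj4), which promotes ERAD and restrains IRE1, was the only gene of the set whose brightest probe lay lower without overlap. Its probe at chr12:45307313-45307372 gave 1.44 and 1.33 against 1.67 and 1.81, which is 1.28-fold lower (difference -0.35, SE 0.11, adjusted p = 0.279 by limma). A dimmer probe of the same gene at chr12:45308272-45308331 gave the opposite order, with -1.14 and -0.91 against -1.38 and -1.67 and a difference of 0.49. The mean of both probes was 0.07 higher on the Myd88-/- arrays, so no direction can be given for Dnajb9.

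Calr and Canx, the lectin chaperones that hold glycoproteins during folding, were both higher on each Myd88-/- array. Calr gave 4.61 and 4.39 against 4.06 and 4.11 (difference 0.41, SE 0.13). Canx gave 4.06 and 3.91 against 3.71 and 3.71 (difference 0.28, SE 0.11), and did not pass at an unadjusted p of 0.05. Sdf2l1, a partner of the DnaJ proteins, gave 2.44 and 2.21 against 1.79 and 1.95 (difference 0.45, SE 0.14). Hsp90b1 encodes GRP94, the HSP90 of the ER. It gave 5.20 and 5.03 against 4.78 and 5.04, so its genotypes overlapped (difference 0.20, SE 0.15). This estimate was below the 0.56 of Hspa5, but whether Hsp90b1 and Hspa5 differed from each other was not tested. The promoter of Hsp90b1 holds the ERSE in both orientations.

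Of the 6 enzymes that make and rearrange disulfide bonds, all had a higher mean on the Myd88-/- arrays, with a median difference of 0.32. At an unadjusted p under 0.05, 2 passed, where 16.7% of all genes did. P4hb encodes PDI, the main disulfide isomerase. It gave 6.35 and 6.28 against 5.93 and 5.82 (difference 0.44, SE 0.11, adjusted p = 0.225 by limma). Ero1lb, an oxidase that recharges PDI in secretory tissues, gave 2.86 and 2.72 against 2.47 and 2.35 (difference 0.38, SE 0.12). Its paralogue Ero1l gave -2.27 and -1.88 against -2.65 and -2.30, and the genotypes were 0.035 apart (difference 0.40, SE 0.21). The other 3 isomerases differed less. Pdia3, which works with Calr and Canx on glycoproteins, gave 3.17 and 3.03 against 2.71 and 2.97 (difference 0.26, SE 0.15). Pdia6 gave 5.65 and 5.51 against 5.49 and 5.46 (difference 0.10, SE 0.11). Its genotypes were separated by only 0.015, and under cyclic loess its difference was -0.0013. Pdia4 overlapped, with 0.75 and 0.44 against 0.21 and 0.64 (difference 0.17, SE 0.22).

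The translocon and signal peptidase genes were the most uniform group. Both Myd88-/- arrays lay above both Myd88+/+ arrays for 10 of 10, against 33.2% of all genes tested. Their median difference was 0.34, and their differences ran from 0.15 to 0.52. At an unadjusted p under 0.05, 5 passed, where 16.7% of all genes did. Spcs2 and Spcs3, subunits of the signal peptidase complex, differed most. Spcs2 gave 5.25 and 5.19 against 4.74 and 4.67 (difference 0.52, SE 0.10, adjusted p = 0.204 by limma). Spcs3 gave 2.90 and 2.71 against 2.33 and 2.28 (difference 0.50, SE 0.12). Spcs1, a further subunit of that complex, gave 5.94 and 5.91 against 5.68 and 5.69 (difference 0.24, SE 0.10). Arrays of 1 genotype agreed closely for the probes of Spcs1 and Spcs2, and less closely for the Myd88-/- arrays of Spcs3.

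Ssr1, Ssr2, Ssr3 and Ssr4 encode the TRAP complex, which sits beside the channel and helps some chains to enter. Ssr1 gave 4.41 and 4.31 against 4.02 and 3.93 (difference 0.38, SE 0.11). Ssr2 gave 4.52 and 4.36 against 4.10 and 4.06 (difference 0.37, SE 0.11). Ssr3 gave 5.29 and 5.03 against 4.73 and 4.76 (difference 0.41, SE 0.14). Ssr4 differed least within the complex, with 6.04 and 5.98 against 5.87 and 5.84 (difference 0.15, SE 0.10), and was the only TRAP gene that did not pass at an unadjusted p of 0.05. The Sec61 genes encode the channel itself. Sec61a1, its pore subunit, gave 6.71 and 6.43 against 6.29 and 6.20 (difference 0.32, SE 0.14). Sec61b gave 7.22 and 7.13 against 6.87 and 6.94, and Sec61g gave 6.21 and 6.16 against 5.88 and 5.94, with a difference of 0.27 (SE 0.10) for each. None of the 3 channel genes passed at an unadjusted p of 0.05.

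Among the 4 ERAD genes, 3 were higher on both Myd88-/- arrays, against 33.2% of all genes tested. Of these, 2 passed at an unadjusted p under 0.05, where 9.82% of all genes tested passed as higher. Syvn1 encodes HRD1, the ubiquitin ligase of ERAD, and Sel1l its membrane partner. Syvn1 gave 5.68 and 5.74 against 5.35 and 5.29 (difference 0.39, SE 0.10, adjusted p = 0.233 by limma). Sel1l gave 2.81 and 2.75 against 2.24 and 2.39 (difference 0.46, SE 0.11, adjusted p = 0.226 by limma). The ligase and its partner thus had differences of like size. Edem1, a lectin that passes misfolded glycoproteins to ERAD, gave 2.29 and 1.76 against 1.28 and 1.48 (difference 0.64, SE 0.23). Its Myd88-/- arrays were 0.53 apart, and without array 1 of that label the difference was 0.38. Herpud1, an ERAD adaptor that the unfolded protein response raises strongly in many cells, gave 5.91 and 5.998 against 6.03 and 5.84. Its difference was 0.02 (SE 0.12), the genotypes overlapped, and the sign turned under normexp, quantile, detected-probe percentile, median and cyclic loess scaling.

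The sensors and transcription factors of the response were the least uniform group. Of 7 genes, 3 were higher without overlap, where 33.2% of all genes tested were, and 4 overlapped. The median difference was 0.23. Eif2ak3 encodes PERK, the kinase that slows translation under ER stress. Its probe (chr6:70855152-70855211, NCBI37/mm9) gave 3.50 and 3.40 against 2.85 and 2.75, which is 1.58-fold higher (difference 0.66, SE 0.11). This was the lowest adjusted p of the set, 0.199 by limma. Atf6, a membrane-bound transcription factor released by cleavage, gave -0.24 and -0.46 against -0.66 and -0.92 (difference 0.44, SE 0.15). Creb3l1, a related membrane-bound factor of secretory cells, gave 5.57 and 5.62 against 5.17 and 5.33 (difference 0.34, SE 0.11). All 3 of these passed at an unadjusted p under 0.05, where 9.82% of all genes tested passed as higher.

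For IRE1 and the factors through which IRE1 and PERK act, the brightest probes overlapped between genotypes, whereas a dimmer probe of Ern1 and of Atf4, given further below, did not. Ern1, which encodes IRE1, gave 0.23 and 0.44 against 0.30 and 0.21 (difference 0.08, SE 0.13). Xbp1, the factor that IRE1 activates by splicing its mRNA, gave 7.22 and 7.09 against 7.17 and 6.67 (difference 0.23, SE 0.21). Only Myd88+/+ array 2 stood low for Xbp1, and without it the difference was -0.02. Atf4, translated when PERK is active, gave 6.52 and 6.74 against 6.53 and 6.51 (difference 0.11, SE 0.12), and under quantile and cyclic loess scaling its difference was -0.012 and -0.0039. Ddit3, which encodes the cell death factor CHOP, gave -0.53 and 0.02 against -0.01 and -0.48. Each genotype held 1 high and 1 low array, and the difference was -0.01 (SE 0.28), or 0.0028 under normexp. The 95% interval for Ddit3 ran from -0.81 to 0.80, so a change of either sign within it is not shown to be absent.

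Further probes gave a partial check of the same genes within the same arrays. In all, 51 probes carried the name of a gene of the set, and 10 genes had more than 1 probe. Of the 14 probes not used above, 11 were well above background on all 4 arrays. Each of the 11 had a higher mean on the Myd88-/- arrays, where 59.6% of all genes tested did. For 10 of them both Myd88-/- arrays lay above both Myd88+/+ arrays, against 33.2% of all genes tested. These shares count the brightest probe of each gene, not every probe. The other probe of Ssr3 gave 1.04 and 1.27 against 0.54 and 0.56 (difference 0.61). That of Spcs3 gave 2.08 and 2.00 against 1.63 and 1.54 (difference 0.45). For Spcs2 the other probe overlapped, with 2.10 and 2.35 against 1.40 and 2.13 (difference 0.46). Of the other probes well above background, 2 belonged to genes whose brightest probe overlapped, Atf4 (2.02 and 2.03 against 1.86 and 1.59, difference 0.30) and Ern1 (-2.06 and -1.71 against -2.34 and -2.22, difference 0.39). Probes of 1 gene share their RNA and their array, so they are not further replicates.

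Beyond the 37 genes, 148 tested genes of the same pathway in 10 lists were mostly higher on the Myd88-/- arrays too. Their mean was higher for 127 and lower for 21, with a median difference of 0.23. Both Myd88-/- arrays lay above both Myd88+/+ arrays for 96 of the 148 and below for 7, against 33.2% and 18.7% of all genes tested. None had an adjusted p under 0.05 by limma. At an unadjusted p under 0.05, 30 were higher and 1 lower, where 9.82% and 6.83% of all genes tested were.

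**Figure D3:**
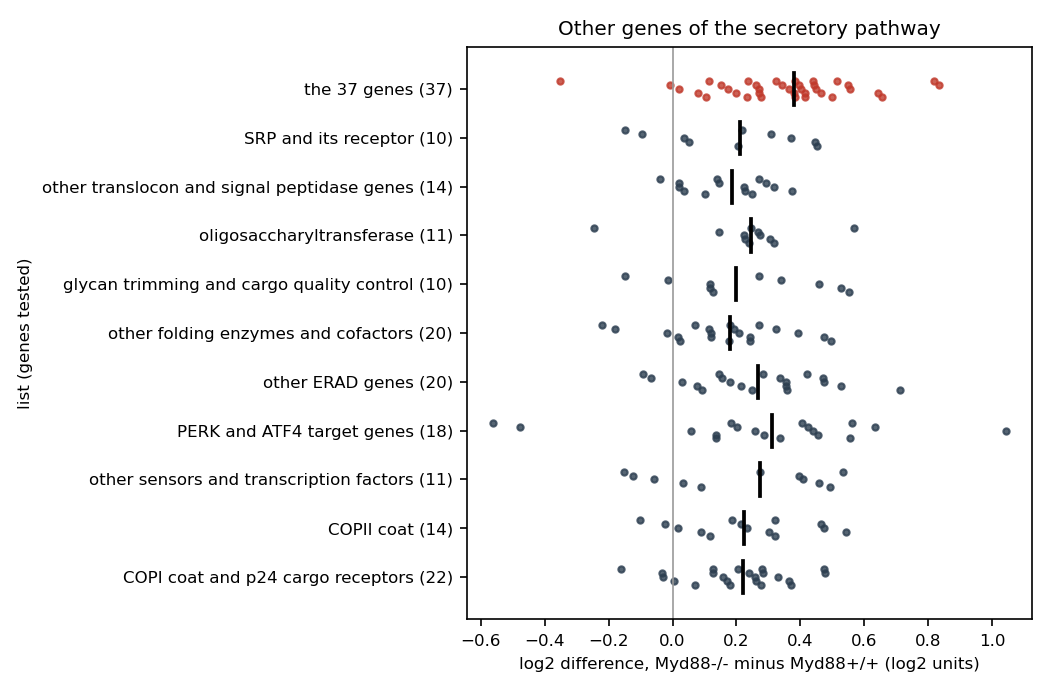
Myd88-/- minus Myd88+/+ difference (log2 units) of every tested gene in the set and in 10 further lists of the pathway; each point is 1 gene, black bars are medians and numbers in brackets are genes tested. The medians of the 10 lists lie between 0.18 and 0.31, and that of the 37 genes at 0.38.

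Genes acting at entry into the ER had like differences. The signal recognition particle and its receptor, which bring ribosomes to the ER, had 8 of 10 genes higher (median 0.21), with Srp9 at 0.45, Srprb at 0.45, Srp68 at 0.37 and Srp19 at 0.31. Other translocon and signal peptidase genes had 13 of 14 higher (median 0.19). Among these, both catalytic subunits of signal peptidase were separated by genotype, Sec11a (4.36 and 4.28 against 3.99 and 4.01) and Sec11c (4.76 and 4.69 against 4.38 and 4.31), beside Tram2 at 0.29 and Sec63 at 0.27. Oligosaccharyltransferase, which attaches N-glycans to entering chains, had 10 of 11 higher (median 0.24). Its catalytic subunit Stt3b gave 2.48 and 2.15 against 1.75 and 1.75, and Ostc, Stt3a and Rpn1 differed by 0.32, 0.30 and 0.27.

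Folding, glycan control and degradation gave a like picture. Other folding enzymes and cofactors had 17 of 20 higher (median 0.18), among them Creld2 at 0.50, Erp44 at 0.47, Qsox1 at 0.39 and Cnpy3 at 0.32. In glycan trimming and cargo quality control 8 of 10 were higher (median 0.20), with Edem3 at 0.55, Edem2 at 0.53, Mcfd2 at 0.46 and the folding sensor Uggt1 at 0.34. Other ERAD genes had 18 of 20 higher (median 0.27). Their largest difference was that of the ubiquitin-conjugating enzyme Ube2g2, with 3.74 and 3.45 against 2.80 and 2.96 (difference 0.71), followed by Edem2 at 0.53 and by Ube2j1 and Rhbdd1 at 0.47 each.

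Targets of PERK and ATF4, genes of amino acid supply and stress, had 16 of 18 higher with a median of 0.31, and the widest range, from -0.56 to 1.04. The genes at both ends of that range overlapped between genotypes. They were Stc2 (-3.62 and -2.39 against -1.83 and -3.07) and Chac1 (3.61 and 5.43 against 3.67 and 3.28). Asns, which encodes asparagine synthetase, gave 7.50 and 7.67 against 7.16 and 7.11. Slc3a2, a subunit of amino acid transporters, gave 5.40 and 5.70 against 4.84 and 4.99 (difference 0.63), and Ddit4 differed by 0.56. Cebpb, a transcription factor, gave 2.85 and 3.19 against 3.42 and 3.57 and was the 1 gene of the 10 lists that was lower at an unadjusted p under 0.05 (difference -0.48). Unlike for most of the 37 genes, Myd88-/- array 2 was the higher of its pair for Asns, Slc3a2, Ddit4 and Cebpb.

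Other sensors and transcription factors had 8 of 11 higher (median 0.27), with Creb3l2 at 0.53, Wfs1 at 0.49, Ern2 at 0.46 and Mbtps2, a protease that releases ATF6, at 0.41. The COPII coat, which carries cargo out of the ER, had 12 of 14 higher (median 0.22), with Preb at 0.54, Sec24d at 0.48, Sec23b at 0.47 and Sar1a at 0.32. COPI coat and p24 cargo receptor genes, which serve return to the ER, had 19 of 22 higher (median 0.22), with Tmed5 at 0.48, Kdelr3 at 0.47, Tmed9 at 0.37 and Tmed10 at 0.36.

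Markers of cell types and tissues differed between the same arrays, and their part in the differences above was not tested. The submandibular acinar list was higher on the Myd88-/- arrays for 9 of 9 genes, 8 without overlap (33.2% of all genes tested), with a median difference of 0.34. Its summed signal, in units of the 75th percentile, was 7695 and 7834 against 5508 and 5888. Smgc, a submandibular secretory gene, was its most different gene, with 10.08 and 9.95 against 8.33 and 8.56 (difference 1.57). Whether acinar cells made the Smgc signal was not tested, and that signal is part of the sums of this list. Lpo, Slc12a2 and Pip differed by 0.44, 0.42 and 0.38. The water channel gene Aqp5 and the acinar transcription factor gene Bhlha15 differed by 0.17 and 0.03, the latter with overlap. Dcpp1, Dcpp2 and Dcpp3, which are named for demilune and parotid cells and carry much of the sum, differed by 0.30, 0.34 and 0.32. Without these 3, a choice made after the values were seen, the list had 6 of 6 genes higher, 5 without overlap, and sums of 3116 and 3117 against 1903 and 2058.

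Skeletal muscle markers were lower on the Myd88-/- arrays for 9 of 9 genes, with summed signals of 2.51 and 2.41 against 26.6 and 150, so that the Myd88+/+ arrays also differed from each other. The muscle myosin gene Myh4 was not well above background on either Myd88-/- array and was at least 218-fold lower there (adjusted p = 0.194 by limma), a bound that was 88.6-fold from Myd88+/+ array 1 alone and 535-fold from array 2 alone. B cell markers were lower for 7 of 7 genes, with sums of 3.36 and 3.25 against 17.0 and 9.89. The B cell gene Ms4a1 was not well above background on either Myd88-/- array, and was at least 28.5-fold lower there (adjusted p = 0.194 by limma), or 42.3-fold and 19.2-fold from Myd88+/+ array 1 and array 2 alone. These bounds set the Myd88+/+ mean against the lowest signal of any probe well above background on each Myd88-/- array, or the probe's own where higher. T cell markers had a lower mean for 8 of 8 genes, 5 without overlap, where 18.7% of all genes tested were. Their sums were 12.3 and 11.9 against 20.8 and 16.1, and Cd3e, Cd4 and Cd8b1 differed by only -0.06, -0.04 and -0.06. On the Myd88-/- arrays adipocyte markers were lower for 7 of 7 genes (166 and 265 against 360 and 360). Sums over both Myd88-/- arrays were thus below those of both Myd88+/+ arrays in all 4 of these lists.

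Plasma cells, which have an abundant ER, were of interest beside these genes. By flow cytometry of SMGs from male mice, the paper found more B cells and more IgA+ plasma cells in Myd88-/- mice. That is a count of cells, whereas the values here are RNA signals of whole glands from female mice. Why the B cell and plasma cell marker genes went the other way was not tested. The plasma cell list had 3 of 8 genes higher and 5 lower (median -0.88). Its summed signal was 67.5 and 63.4 against 56.5 and 54.3, but the immunoglobulin chain gene Igj gave -6.27 and -3.44 against 1.28 and 0.76 and so was lower on both Myd88-/- arrays, of which 1 had it well above background. The genes 2010001M09Rik, Tnfrsf13b and Irf4 were lower without overlap as well, with differences of -3.80, -2.12 and -1.62. Derl3, which is also an ERAD gene and counted in both lists, gave most of the sum (5.98 and 5.90 against 5.58 and 5.59). Without Derl3 the sum turned to 4.19 and 3.87 against 8.67 and 6.20, with 5 of 7 genes lower. For the sublingual gland the sums were 562 and 496 against 504 and 545, with Creb3l1 counted both there and among the 37 genes. For macrophages they were 41.4 and 36.3 against 44.9 and 33.7, and for the granular convoluted tubule 2186 and 2127 against 1910 and 2250. For the parotid gland they were 3715 and 2299 against 3902 and 3951, so both Myd88-/- sums were the lower ones here too. In the parotid list, Prh1, Prb1 and Dnase1 differed by -2.41, -2.29 and -1.40, with Myd88-/- array 2 far below array 1 (Prh1 gave 4.73 and 2.75). Amy1 and Psp overlapped between genotypes, with differences of -0.57 and -0.18. Cldn10 and Prol1, counted in the same list, were higher without overlap, by 0.52 and 0.37. How particular each gene of that list is to the parotid gland was not tested. The sums of the sublingual, macrophage and granular convoluted tubule lists overlapped between genotypes.

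**Figure D4:**
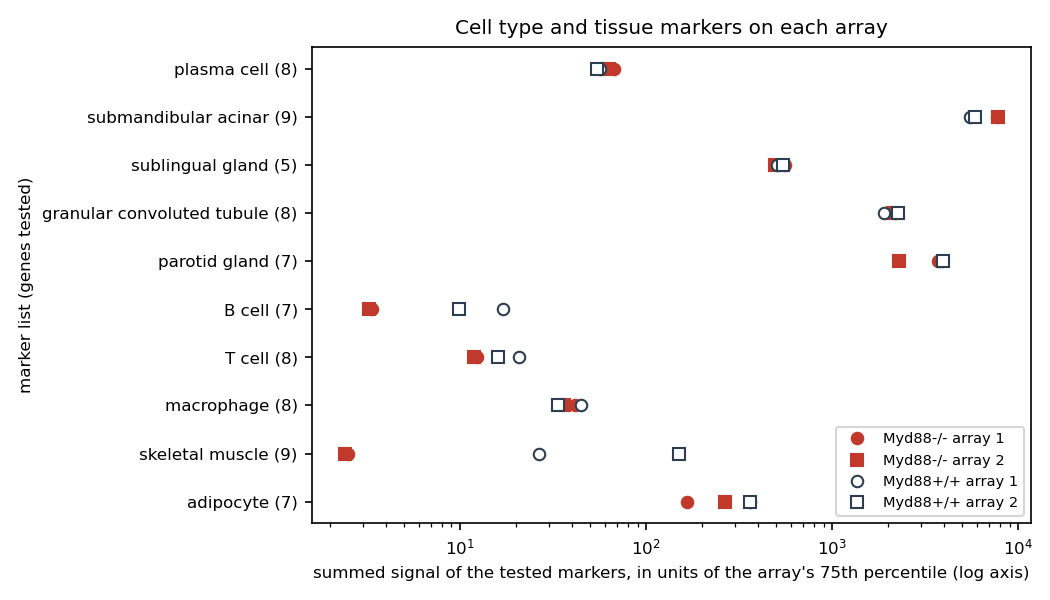
Summed signal of the tested genes of 10 marker lists on each array, in units of the 75th percentile of that array on a log axis; filled points are Myd88-/- arrays, open points Myd88+/+ arrays, and numbers in brackets are genes tested. Skeletal muscle runs from 2.41 to 150 and B cells from 3.25 to 17.0, both with the Myd88-/- arrays lowest, whereas the submandibular acinar sums are highest on the Myd88-/- arrays.

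The median difference of the set stayed above 0 under each scaling that was run. It was 0.31 after normexp background correction, 0.30 after quantile normalization, 0.33 with the percentile taken over detected probes, 0.33 after median scaling and 0.29 after cyclic loess. Over all genes tested the median was 0.07, 0.01, 0.02, 0.01 and -0.00 in the same order. Of the 35 genes above 0, 32 to 34 stayed above 0 under each of these scalings. Without Myd88-/- array 1 the median of the set was 0.30, and without Myd88-/- array 2 it was 0.43. Leaving out Myd88+/+ array 1 or 2 gave 0.37 and 0.36. Of the unadjusted calls over all genes tested, 59% were higher on the Myd88-/- arrays as scaled here, against 63.1% after normexp, 49.3% with the detected-probe percentile, 48.7% after quantile normalization, 44.5% after cyclic loess and 24.1% after median scaling.

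**Figure D5:**
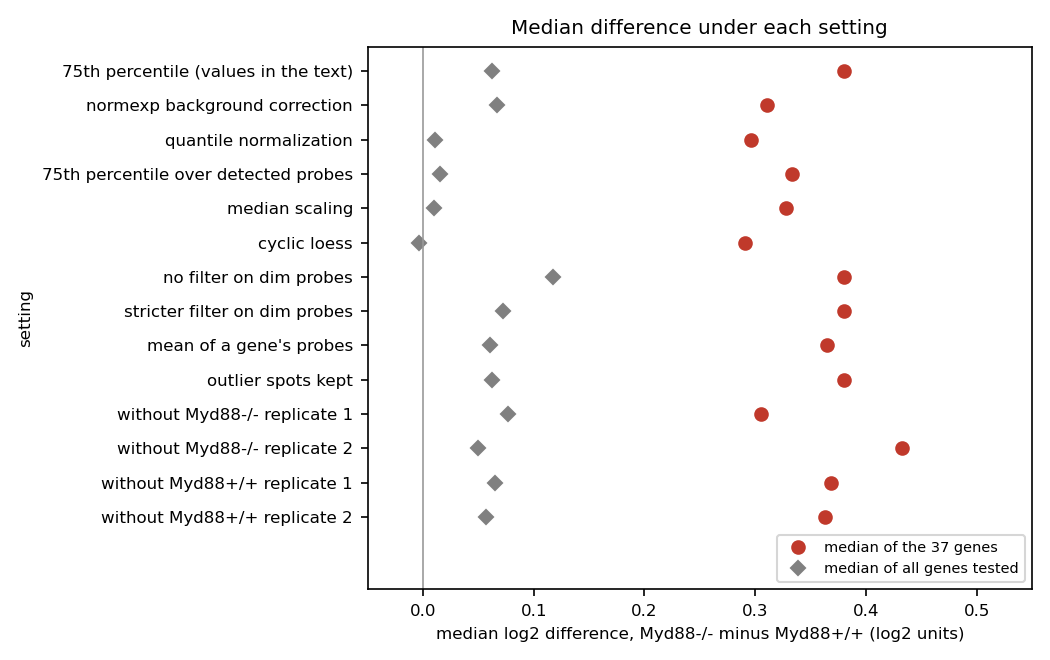
Median Myd88-/- minus Myd88+/+ difference (log2 units) of the 37 genes (red circles) and of all genes tested (grey diamonds) under each scaling, filter and left-out array. The set lies between 0.29 and 0.43 and all genes tested between -0.00 and 0.12.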

How the data were processed

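Gene expression in 2 arrays labelled Myd88-/- and 2 labelled Myd88+/+ was read from the scanner output deposited by the authors (Agilent Feature Extraction 10.7.3.1). The deposited processed intensity carries the background and spatial detrending corrections of that software, and arrays had not been normalized against each other. The deposited mean and local background intensity were used in 1 alternative. Probe positions are those of the files (NCBI37/mm9). The series-wide processed table was left out, since its 4 value columns match no single sample.

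From the files, each array's log2 intensity was centred on its 75th percentile over 59305 non-control spots. Outlier spots were dropped (99 to 131 per array, and 0 were saturated), and replicate spots averaged. Testing required over a share of 0.5 of a probe's spots well above background on both arrays of either genotype, and a gene took the values of its brightest such probe. Genotypes were compared over 22312 genes with lmFit and eBayes of limma 3.58.1 (R 4.3.3), and p-values were adjusted by the Benjamini-Hochberg method (threshold 0.05). The number of arrays limits the precision. The methods' t-test is the unpaired one. The procedure was tested on simulated data.

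The genes, the 10 pathway lists and the 10 marker lists were chosen with earlier results of these data known. Genes named are the 37, Myd88, and in each list up to 4 genes with the largest difference without overlap, while Muc19, Derl3, Aqp5, Bhlha15, Dcpp1, Dcpp2, Dcpp3, Cd3e, Cd4 and Cd8b1 were chosen after their values were seen, and 1 marker gene is not reported here. Settings tried were 16 planned and 1 added after seeing the data, a block of crossed replicate pairs. Deviations of arrays with the same replicate number correlated at -0.396 over 22312 genes. Promoter sequences are from RefSeq (GRCm38.p6), in which Ero1l and Ero1lb are listed as Ero1a and Ero1b.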

Additional observations from a re-analysis of the deposited data

How the results depend on the processing

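Of 629 values of the 37 genes under other settings, 17 reversed in sign, in 8 genes, and 29 genes kept 1 sign throughout. The count of all genes with an adjusted p under 0.05 was 0 as reported, 80 after normexp, 402 after median scaling, 482 with trended and robust moderation and 1 with the methods' t-test; that of the 37 genes was 0 in each except trended and robust moderation (4), where 4 values were stronger. At an unadjusted p under 0.05, 20 of the 37 genes passed (16.7% of all genes tested), against 0 after median scaling (4.46% of all), 12 after cyclic loess (15.5%) and 10 with no filter on dim probes (7.33%), and 6 to 11 with 1 array left out (9.82% to 13.6%). For the 148 other genes of the pathway, 31 passed, where 16.7% of all genes tested did. With the share of all genes in brackets, 15 passed after quantile normalization (14.8%), 0 after median scaling (4.46%) and 12 after cyclic loess (15.5%). With no filter 10 passed (7.33%), and with trended and robust moderation 57 (20%). In each of these alternatives except trended and robust moderation, the share of the 148 that passed was below that of all genes. With the replicate number as a block, 9 of the 37 and 14 of the 148 passed (10.8% of all genes); the replicate numbers are not known to pair mice. With crossed pairs as a block, a setting chosen after seeing the data, 17 of the 37 and 4157 of all genes passed, and 0 after adjustment. Herpud1 turned to -0.046 under normexp, -0.075 under quantile, -0.026 under the detected-probe percentile, -0.031 under median scaling and -0.089 under cyclic loess. Ddit3 was 0.0028 under normexp, Atf4 -0.012 under quantile and -0.0039 under cyclic loess, Pdia6 -0.0013 under cyclic loess and Dnajb9 0.071 with the mean of its probes. With 1 array left out, the lowest and highest values were -0.069 (without Myd88+/+ array 2) and 0.11 for Herpud1, -0.28 and 0.27 (without Myd88-/- array 2 and array 1) for Ddit3, -0.029 (without Myd88-/- array 2) and 0.19 for Ern1, -0.044 (without Myd88+/+ array 1) and 0.39 for Pdia4, and -0.019 (without Myd88+/+ array 2) and 0.48 for Xbp1. The cause of these changes was not tested. All brightest probes of the set were well above background, but each rests on 1 spot per array and 2 arrays per genotype.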
